A study of Homo sapiens with 5 samples.

Results

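S-phase nuclei were selected from a mixture of human lung adenocarcinoma cell lines by their nuclear RNA, and 581 of the 6557 barcodes in the 80% matrix were chosen. A barcode stands for the nucleus, or at times more than 1 nucleus, in a droplet. Of these barcodes, 6456 had at least 5000 RNA UMIs, where a UMI is a molecule tag that is counted once. The G2/M score was the percent of a nucleus's UMIs on 8 genes of G2 and mitosis (MKI67, TOP2A, CENPF, ASPM, TPX2, CENPE, KIF11 and BUB1). The 646 nuclei in its highest 10% were set aside and are called G2/M-high. The S score was the percent of UMIs on 10 genes of DNA replication and its control (HELLS, BRIP1, POLA1, ATAD2, DTL, CLSPN, RRM2, MCM4, MCM6 and E2F8). The highest 10% of the remaining nuclei by S score are called S-high, the lowest 50% are called S-low (2905 nuclei) and the 2324 nuclei between them are called S-mid.

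The cells were H2228, H1975, A549, H838 and HCC827, established lines that were grown separately without any treatment until nearly confluent, frozen, mixed in equal numbers and captured as sorted nuclei with the 10X Genomics Multiome assay, which reads RNA and open chromatin (ATAC) from the same nucleus. The droplets were divided into an 80% and a 20% portion, each with 1 RNA and 1 ATAC library, and the 20% portion was also read with long reads. The labels speak of 16000 nuclei captured and of 9700 in total, and the 80% and 20% matrices hold 6557 and 1286 barcodes. The 80% matrix holds 95455518 RNA UMIs and 63920767 ATAC counts, and the 20% matrix 14346346 and 12850543. With 1 library a portion there is no replicate, so no test was made and nuclei were not treated as replicates of a condition. Intervals are exact 95% intervals of counting error only, except those of medians and of their ratios. These come from the spread between nuclei, and those of ratios hold the S-low median fixed. Barcodes called in both matrices numbered 159, and 12 of the S-high nuclei of the 80% portion were among them. The line of each nucleus was not used here, and nuclei were placed in 5 RNA clusters, numbered 0 to 4, that were made without the genes of the cell-cycle lists. Their leading genes were PPP2R2B in cluster 0, RBFOX3 in cluster 1, AC069277.1 in cluster 2, AC073365.1 in cluster 3 and AC090578.1 in cluster 4.

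In S phase a cell copies its DNA. Origins are licensed in G1 by loading of the MCM helicase through ORC, CDC6 and CDT1, they are then fired by cyclin-dependent and CDC7 kinases, and the replisome copies both strands while nucleotide synthesis and chromatin assembly keep pace. Transcription of most of these factors is driven by E2F proteins once RB1 is phosphorylated, and gene-dense DNA is generally copied before gene-poor DNA. Adenocarcinoma lines in culture divide without synchrony, so nuclei of all phases are present together.

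The genes that chose these nuclei differ in how their promoters read. E2F proteins bind a short GC-rich word after a run of T, and 4 spellings of it (TTTCGCGC, TTTGGCGC, TTTCCCGC and TTTGCCGC) were searched on both strands of the 250 bases before each annotated start in the RefSeq promoter table for GRCh38.p14. The table held 7 of the 10 S score genes, and 4 of these, 57.1%, had at least 1 such word, against 3.40% of all 27305 genes of the table. A match describes the letters and not a bound site. The promoters of these 4 genes are shown with the words in capitals, followed by that of RRM2. Of the score genes RRM2 had the largest ratio of ATAC counts in the 80% portion, read over 7 peaks. None of the 4 words was found at either of its starts in the table.
HELLS, chr10:94545538-94545787, plus strand: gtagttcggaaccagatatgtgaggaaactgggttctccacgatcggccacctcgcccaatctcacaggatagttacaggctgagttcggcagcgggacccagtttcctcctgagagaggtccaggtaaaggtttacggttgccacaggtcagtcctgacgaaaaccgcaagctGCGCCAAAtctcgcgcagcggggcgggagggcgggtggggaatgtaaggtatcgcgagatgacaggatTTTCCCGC
DTL, chr1:212035498-212035747, plus strand: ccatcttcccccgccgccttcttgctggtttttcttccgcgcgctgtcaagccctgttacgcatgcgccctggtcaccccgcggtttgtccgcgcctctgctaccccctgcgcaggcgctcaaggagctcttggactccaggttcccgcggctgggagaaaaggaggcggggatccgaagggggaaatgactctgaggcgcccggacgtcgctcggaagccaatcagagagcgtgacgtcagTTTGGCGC
POLA1, chrX:24693668-24693917, plus strand: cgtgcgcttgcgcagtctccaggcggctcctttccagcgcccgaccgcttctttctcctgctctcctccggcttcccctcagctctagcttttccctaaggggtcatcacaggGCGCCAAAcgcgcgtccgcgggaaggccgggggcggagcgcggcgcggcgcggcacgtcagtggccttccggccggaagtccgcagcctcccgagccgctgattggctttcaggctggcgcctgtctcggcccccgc
MCM6, chr2:135876444-135876693, minus strand: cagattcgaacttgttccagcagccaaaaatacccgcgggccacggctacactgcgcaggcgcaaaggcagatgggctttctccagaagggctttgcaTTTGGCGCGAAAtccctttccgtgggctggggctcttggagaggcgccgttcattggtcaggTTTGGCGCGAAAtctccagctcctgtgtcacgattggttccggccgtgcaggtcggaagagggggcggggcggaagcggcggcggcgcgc
RRM2, chr2:10122489-10122738, plus strand: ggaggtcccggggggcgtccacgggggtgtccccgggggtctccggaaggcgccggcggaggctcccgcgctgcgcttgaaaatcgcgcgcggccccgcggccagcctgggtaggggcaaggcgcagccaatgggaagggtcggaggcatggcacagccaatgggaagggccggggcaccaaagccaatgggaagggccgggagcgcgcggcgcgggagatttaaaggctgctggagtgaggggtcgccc
HELLS carries a word on each strand, DTL and POLA1 carry 1 word each, and MCM6 carries 4 words in 2 pairs that overlap on opposite strands. An ATAC peak of the 80% matrix lay over each of the 5 windows. In BRIP1 and CLSPN, the other genes among the S-phase markers, none of the words was found in this window.

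The values that made the choice are a description and carry no test. In the 581 S-high nuclei the S score ran from 0.226% through a median of 0.264% to 0.430% of UMIs, and the median nucleus held 39 UMIs on the 10 genes. In S-low nuclei the median was 0.0254%, or 3 UMIs, and 235 nuclei had none. The S score has no gap at its threshold. The lowest S-high nucleus stood at 0.226261% and the highest nucleus left out at 0.226244%, and 187 S-high nuclei lay less than 10% above the threshold while 244 S-mid nuclei lay less than 10% below it. S-high nuclei are therefore the upper end of a range. In the plot of both scores, G2/M-high nuclei had a median S score of 0.0731%, between S-low and S-high, and 15 of the 646 were above the S-high threshold. S-high nuclei had a median G2/M score of 0.125%, against 0.0180% in S-low and 0.497% in G2/M-high nuclei.

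**Figure D1:**
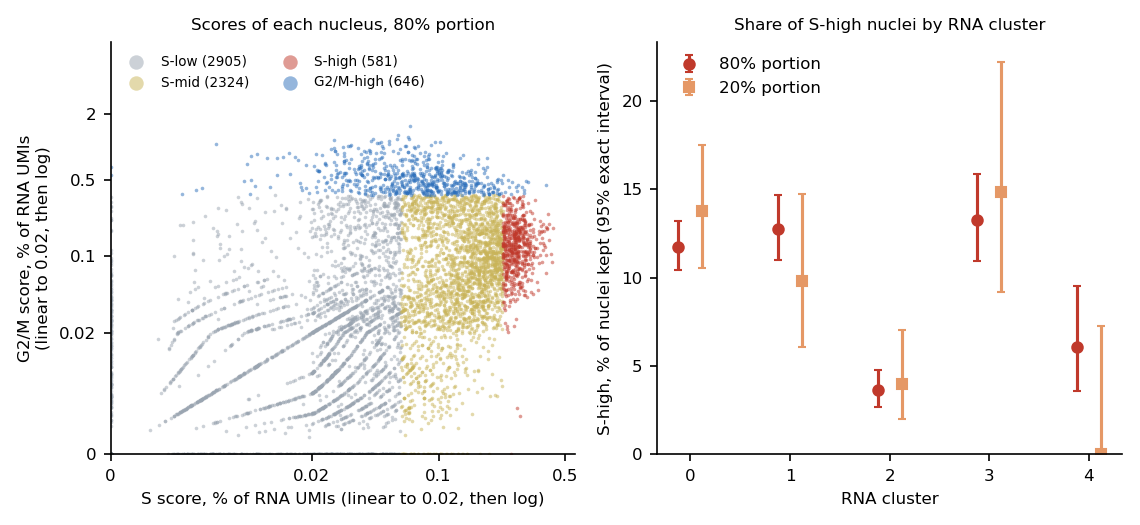
Left, S score (x axis) and G2/M score (y axis) of each of the 6456 nuclei of the 80% portion, in percent of RNA UMIs, with a point for each nucleus coloured by class; right, percent of kept nuclei that were S-high in each RNA cluster of the 80% (circles) and 20% portion (squares), with exact 95% binomial intervals. The S-high nuclei form the right end of a continuous cloud. Their share in the 80% portion was lowest in cluster 2, whose interval overlapped that of cluster 4.

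S-high nuclei were richer in RNA than S-low nuclei. The median was 14724 UMIs and 5253 genes in S-high, 14008 UMIs in S-mid, 12507 UMIs and 4694 genes in S-low and 16027 UMIs in G2/M-high nuclei. Doublet calls, which mark barcodes whose profile resembles a sum of nuclei, were at 2.41% in S-high (1.32 to 4.01%), 4.48% in S-low and 9.55% in S-mid nuclei. Mitochondrial genes took a median 0.622% of UMIs in S-high and 0.618% in S-low nuclei. Of 20 markers of immune and stromal cells, only COL1A1 and CD68 reached 10 CPM (UMIs of a gene per 1000000 UMIs), these genes summed to 164 CPM in S-high and 174 CPM in S-low nuclei, and PTPRC, which marks leukocytes, was seen in 3 of the 581 S-high nuclei.

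The share of S-high nuclei was uneven between RNA clusters. It was 11.8% of kept nuclei in cluster 0 (10.4 to 13.2%, 250 nuclei), 12.7% in cluster 1 (10.97 to 14.7%, 164 nuclei), 13.3% in cluster 3 (10.9 to 15.9%, 101 nuclei), 6.05% in cluster 4 (3.56 to 9.51%, 17 nuclei) and 3.62% in cluster 2 (2.69 to 4.75%, 49 nuclei). Clusters 0, 1 and 3 had overlapping intervals. Clusters 2 and 4 lay below them, with intervals that overlapped each other. With a floor of 10000 UMIs cluster 1, at 18.4% (15.1 to 22.2%), no longer overlapped clusters 0 and 3. It then lay above cluster 0, at 10.9% (9.56 to 12.3%), and cluster 3, at 12.2% (9.86 to 14.9%). Cluster 2 also held 71.7% S-low nuclei, against 35.6% in cluster 3. Under the same rule in the 20% portion, 106 nuclei were S-high. The shares were 13.8% (10.6 to 17.5%), 9.80% (6.09 to 14.7%), 3.99% (2.01 to 7.02%) and 14.8% (9.18 to 22.2%) in clusters 0 to 3. None of the 49 kept nuclei of cluster 4 was S-high there, where 0 nuclei is within a share of up to 7.25%. G2/M-high nuclei, as a share of all nuclei with at least 5000 UMIs, took another order in the 80% portion. Their share was 13.4% in cluster 0, 13.5% in cluster 4 (10.01 to 17.7%), 9.81% in cluster 1, 6.74% in cluster 3 and 5.38% in cluster 2. In the 20% portion it was 12.5%, 8.52%, 6.76%, 12.3% (7.47 to 18.8%) and 5.77% (1.21 to 15.9%) in clusters 0 to 4, so clusters 3 and 4 changed places. Cluster 1 was also the shallowest, with a median of 9125 UMIs in its kept nuclei against 15205 in cluster 0.

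To ask what else S-high nuclei share, UMIs were summed over nuclei and set over those expected from S-low nuclei of the same RNA clusters. Levels are in CPM, each S-low or G2/M-high level is weighted to the clusters of the S-high nuclei, and a gene is counted as higher or lower from 1.5-fold, a rule of size and not a test. Among 10562 genes outside the scores with at least 10 CPM, 760 (7.2%) were higher and 363 (3.44%) lower in S-high nuclei, with a median log2 fold of −0.05. The count of lower genes moved with the setting, since 992 genes were higher and 815 lower without cluster weights, and 424 and 142 with S-low widened to the lowest 90% by S score. The RNA that chose the nuclei and the RNA compared here come from the same library, so these folds are descriptions too. The rule was also applied to the 20% matrix, where the same score genes again chose nuclei in the RNA library that was read. The values of that portion are thus descriptions in the same way. There 742 of the 760 higher genes were also above S-low, 644 of them by 1.5-fold, and 328 of the 363 lower genes were also below, 206 of them by 1.5-fold. Over 10560 genes, which are not independent, the log2 folds of the portions had a Pearson r of 0.83 and a Spearman rho of 0.67.

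The score genes themselves were read with each gene left out of the score that chose its nuclei. HELLS, a chromatin remodeller of the SNF2 family, then had 391 CPM in S-high and 67.9 CPM in S-low nuclei, a 5.76-fold difference. The fold was 12.6 for DTL, an adaptor of the CRL4 ubiquitin ligase that removes CDT1, and 11.5 for CLSPN, which carries the checkpoint signal to CHEK1 at the fork. It was 9.18 for RRM2, the small subunit of ribonucleotide reductase, and 12.97 for BRIP1, a helicase that works with BRCA1. All 10 genes stayed above 1.5-fold, from 3.29-fold for MCM6 of the replicative helicase to 17.8-fold for E2F8, a repressor in the E2F family, and in the 20% portion they ran from 2.33-fold to 21.7-fold for the same pair. Each choice without a gene kept between 506 and 561 of the 581 nuclei.

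The replication genes outside the score were higher in S-high nuclei almost throughout. Over 6 lists on origins, the replisome, nucleotides, fork repair, chromatin assembly and E2F control, 121 of the 137 genes compared were higher and 0 lower. The median log2 fold was 1.82 beside −0.05 for all genes. Among all 10562 genes 7.2% were higher and 3.44% lower, and these shares also stand beside the 80% portion counts of the single lists below. In the 20% portion the count was 123 of 139 higher and 0 lower, beside 9.96% higher and 8.79% lower among all 10738 genes compared there. The lists were chosen with results of these data known.

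Among origin factors 20 of 24 were higher. MCM10, which helps to start unwinding at origins, had 101 CPM in S-high and 5.15 CPM in S-low nuclei, a log2 fold of 4.29 (4.06 to 4.53) in the 80% and 4.07 in the 20% portion. CDC6, a loader of the MCM helicase, had 151 and 15.4 CPM, and CDT1, its partner, had 63.6 and 11.7 CPM. TICRR, needed for firing, had the next largest difference of the list, with 30.9 and 1.79 CPM, a log2 fold of 4.11 in the 80% and 3.11 in the 20% portion. The subunits ORC2, ORC4 and ORC5 and the helicase MCM9 stayed within 1.5-fold in the 80% portion. In the 20% portion 21 of 24 were higher, beside 9.96% of all genes, MCM9 among them, and ORC2, ORC4 and ORC5 stayed within 1.5-fold.

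Of 32 replisome genes 30 were higher. CDC45, the helicase cofactor that marks fired origins, had 64.5 CPM in S-high and 5.48 CPM in S-low nuclei, a log2 fold of 3.56, and one of 2.89 in the 20% portion. DSCC1, of an alternative clamp loader, had log2 folds of 3.22 and 2.20 in the 80% and 20% portions, and ATAD5, which unloads the sliding clamp, 2.85 and 2.82. PCNA, the sliding clamp itself, had 627 CPM in S-high, 163 in S-low and 248 in G2/M-high nuclei, a log2 fold of 1.94 over S-low. It was higher in S-high nuclei of every cluster, with 540 against 138 CPM in cluster 0 and 787 against 169 CPM in cluster 3.

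Genes of fork repair and the checkpoint had the largest median log2 fold of the 6 lists, 2.07 in the 80% and 2.25 in the 20% portion. In the 80% portion 32 of 34 were higher, and ATR and FANCC stayed within 1.5-fold. EXO1, an exonuclease of mismatch repair and DNA end resection, had the highest fold of all genes outside the scores in the 80% portion. It had 115 CPM in S-high and 4.58 CPM in S-low nuclei, a log2 fold of 4.65 (4.44 to 4.87). In the 20% portion ZNF695 was highest, at a log2 fold of 4.63, and EXO1 had 106 and 6.26 CPM, a log2 fold of 4.08. In the 5 clusters of the 80% portion the S-high level of EXO1 ran from 92.7 to 183 CPM. Its S-low level ran from 3.64 to 8.52 CPM, so the summed levels of the clusters did not overlap between the classes. An EXO1 UMI was found in 76.2% of S-high nuclei (72.6 to 79.7%), in 6.82% of S-low and in 31.6% of G2/M-high nuclei, and at an equal depth of 5000 UMIs these would be 41.8%, 2.70% and 12.4%. POLQ, the polymerase of end joining by short homology, had log2 folds of 4.30 and 4.40 in the 80% and 20% portions, and BLM, the Bloom syndrome helicase, 3.80 and 2.71.

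Among the 6 lists nucleotide supply had the smallest median, a log2 fold of 0.92, with 11 of 16 higher. TK1, thymidine kinase, had 139 CPM in S-high and 25.3 CPM in S-low nuclei, and TYMS, thymidylate synthase, had 166 and 35.8 CPM. The purine and pyrimidine enzymes ATIC, CAD, GART, PAICS and UMPS stayed within 1.5-fold in the 80% portion. In the 20% portion 12 of 16 were higher, beside 9.96% of all genes, and ATIC, PAICS, SHMT1 and UMPS stayed within 1.5-fold. In chromatin assembly 15 of 17 were higher, led by the histone chaperones ASF1B, at a log2 fold of 3.33, and CHAF1A, at 2.99, and by WDR76, at 2.86. ASF1A, the paralog of ASF1B, had a log2 fold of −0.30 in the 80% and 0.02 in the 20% portion.

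In E2F and cyclin control 13 of 14 were higher. E2F1, an activator of the S-phase programme, had 76.4 CPM in S-high and 7.12 CPM in S-low nuclei, MYBL2, a transcription factor that E2F proteins induce, had 81.3 and 8.19 CPM, and CCNE2, a cyclin of the G1 to S transition, had 76.3 and 8.46 CPM. CCNE1, its paralog, had 27.6 and 10.2 CPM. CCNA2, the cyclin of S phase and G2, had 49.0 CPM in S-high and 12.8 CPM in S-low nuclei.

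**Figure D2:**
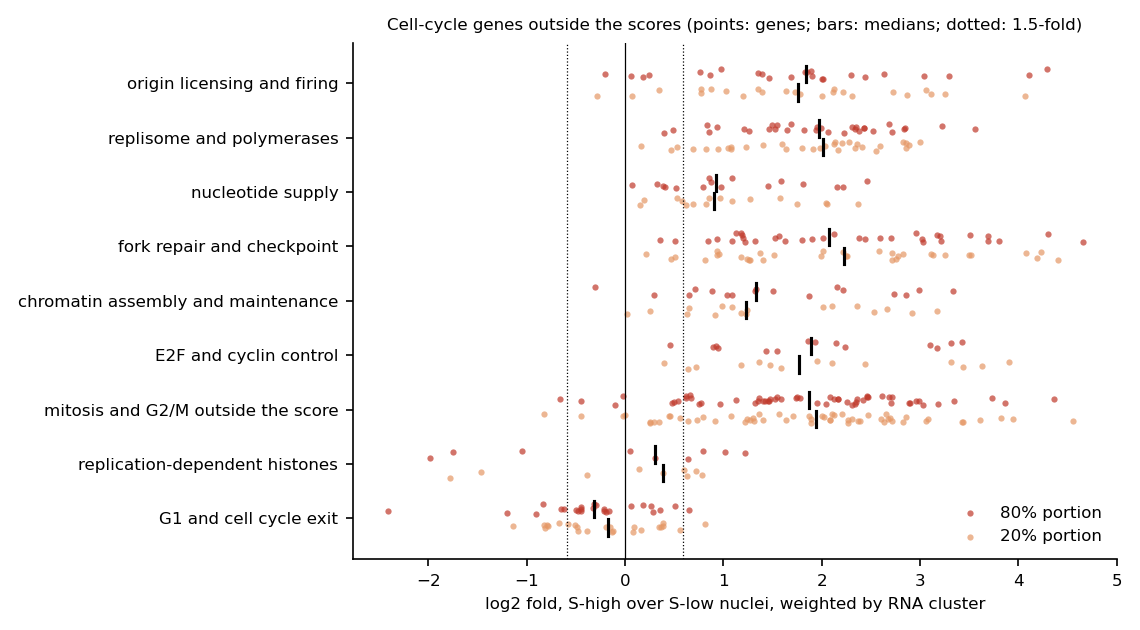
Log2 fold of S-high over S-low nuclei, weighted by RNA cluster (x axis), for genes of at least 10 CPM in 9 cell-cycle lists (y axis); each point is a gene, red for the 80% and orange for the 20% portion, black bars are medians and dotted lines mark 1.5-fold. The medians of the 6 replication lists and the mitosis list lie to the right of 0, and single genes such as ASF1A and CCNB1 lie to the left of it in the 80% portion; CCNG2 is not drawn for the 20% portion, where S-high nuclei had 0 UMIs.

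Of the 10 highest folds outside the scores, 4 belonged to genes that are in none of the lists. FAM111B, which holds a trypsin-like protease domain, had 180 CPM in S-high and 10.4 CPM in S-low nuclei, TCF19, a nuclear protein with a PHD finger, had 40.7 and 2.70 CPM, ESCO2, the acetyltransferase that ties sister chromatids together by cohesin during S phase, had 95.7 and 5.92 CPM, and NEIL3, a DNA glycosylase, had 161 and 9.52 CPM. Each was higher in all 5 clusters.

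Genes of mitosis outside the G2/M score were also higher, in 51 of 58 cases beside 7.2% of all genes, with a median log2 fold of 1.87, and in 47 of 58 beside 9.96% in the 20% portion. KIF18B, a kinesin that shortens microtubules in mitosis, had 67.7 CPM in S-high and 3.30 CPM in S-low nuclei, CENPI, a centromere protein, had 65.9 and 4.54 CPM, and DIAPH3, a formin, had 321 and 24.1 CPM. CCNB1, the cyclin of mitotic entry, was the only lower gene of the list, with 77.7 CPM in S-high, 123 CPM in S-low and 694 CPM in G2/M-high nuclei. CCNB2 and KIF20A, which act late in G2 and mitosis, had log2 folds of −0.10 and −0.44.

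Of 25 genes of G1 and of exit from the cycle, 6 were lower, beside 3.44% of all genes, and 1, RB1, was higher. Of 24 compared in the 20% portion, 6 were lower, beside 8.79% of all genes. CCNG2, a cyclin of arrested cells, was the lowest gene of all outside the scores, with 2.42 CPM in S-high, 12.9 CPM in S-low and 16.2 CPM in G2/M-high nuclei, a log2 fold of −2.41 (−3.10 to −1.80). It was lower in S-high nuclei of all 5 clusters, on counts of 1 to 8 UMIs a cluster. In the 20% portion S-high nuclei had 0 CCNG2 UMIs, where 3 counts would be 2.16 CPM, and S-low nuclei had 12.98 CPM. MXD4, a MYC antagonist, had 15.9 and 36.5 CPM, CDKN1C, an inhibitor of cyclin-dependent kinases, 25.2 and 47.4 CPM, and YPEL5, FOXO1 and TXNIP had log2 folds of −0.84, −0.62 and −0.65. TXNIP, at −0.49, stayed within 1.5-fold in the 20% portion, where CDKN1B and GADD45B were lower instead. CDKN1A, the inhibitor induced by p53, had 10.6 and 14.9 CPM, and CCND1, the cyclin of early G1, had 259 and 228 CPM, so both stayed within 1.5-fold.

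Other low genes came with CCNG2. KDM7A and KDM6B, histone demethylases, had log2 folds of −2.26 and −1.51, and KLHL24, an adaptor of a ubiquitin ligase, had 18.4 CPM in S-high and 65.04 CPM in S-low nuclei. PALMD, CSMD1, CATSPERB and LINC02267 had between 2.64 and 7.49 CPM in S-high nuclei. Of the 9 lowest genes with UMIs in S-high nuclei of both portions, which leaves out CCNG2, CSMD1 differed most between them, with a log2 fold of −1.66 in the 80% and −0.59 (−1.84 to 0.43) in the 20% portion.

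Replication-dependent histone genes did not move as a group. Their transcripts mostly end without a poly(A) tail, and the labels describe poly(A) RNA. Only 9 of 50 reached 10 CPM, 4 of these were higher and 3 lower, beside 7.2% and 3.44% of all genes, and their summed level was 290 CPM in S-high and 302 CPM in S-low nuclei. Of 12 compared in the 20% portion, 6 were higher and 3 lower, beside 9.96% and 8.79% of all genes, and the sums were 379 and 358 CPM. The linker histones HIST1H1D and HIST1H1E had log2 folds of 1.22 and 1.02 in the 80% and of 0.39 (−0.41 to 1.14) and 0.78 in the 20% portion, and HIST1H1C, another linker histone, had one of 0.05 in the 80% portion. Core histones went both ways there, with log2 folds of 0.79 for HIST2H2AC and 0.64 for HIST1H4C and of −1.98 and −1.75 for HIST1H2AC and HIST1H2BD. HIST1H2AC was lower in every cluster of the 80% portion, with 20.4 against 98.1 CPM in cluster 3 and 8.25 against 20.5 CPM in cluster 2. SLBP, which binds the end of these transcripts, had a log2 fold of 1.32.

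S-high nuclei were then set against G2/M-high nuclei, the other class chosen by cell-cycle genes. Both were chosen by scores of the same libraries, so these values are descriptions. Of 10562 genes, 823 (7.79%) were higher and 338 (3.2%) lower in S-high nuclei. The replication lists had 90 of 137 higher and 5 lower (CCNA2, CKS1B, DBF4, DBF4B and KMT5A), and the mitosis list had 2 of 58 higher and 44 lower. In the 20% portion 77 of 139 replication genes were higher, beside 12.1% of all genes, and 45 of 58 mitosis genes were lower, beside 8.05%. G2/M-high over S-low nuclei, a comparison that shares the S-low nuclei, had 84 of the 137 replication genes higher, beside 5.7% of all genes.

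Among genes that were higher in S-high than in S-low nuclei, levels in G2/M-high nuclei ranged from those of S-low nuclei to those of S-high nuclei or above. CCNE2 had 76.3 CPM in S-high, 8.46 in S-low and 8.63 in G2/M-high nuclei, the largest log2 fold of S-high over G2/M-high, 3.14. FAM111B had 180, 10.4 and 26.4 CPM, E2F1 76.4, 7.12 and 12.5 CPM, and WDR76 100.2, 13.8 and 18.5 CPM. TICRR, at 30.9 and 31.9 CPM, and NEIL3, at 161 and 139 CPM, had about the same level in S-high and G2/M-high nuclei, and CCNA2, at 49.0 and 111 CPM, was lower in S-high. CCNE2 was low in G2/M-high nuclei of every cluster, at 3.91 to 11.4 CPM, whereas S-high nuclei had 36.8 to 92.7 CPM.

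**Figure D3:**
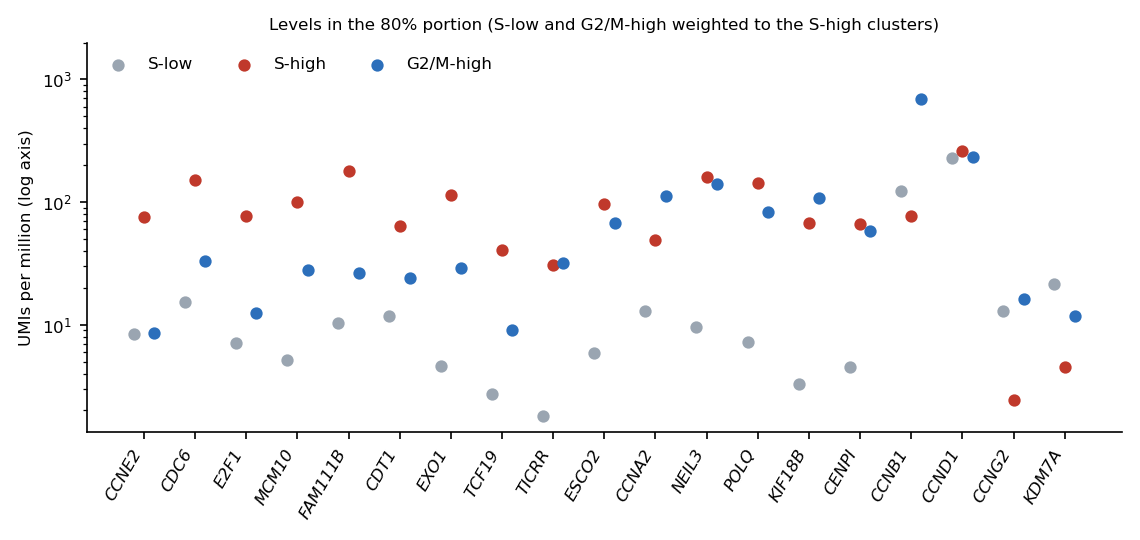
Levels of 19 genes in S-low (grey), S-high (red) and G2/M-high nuclei (blue) of the 80% portion, in CPM on a log axis, with S-low and G2/M-high levels weighted to the clusters of the S-high nuclei. CCNE2, E2F1 and FAM111B were highest in S-high nuclei, TICRR and NEIL3 were at similar levels in S-high and G2/M-high, and CCNG2 and KDM7A were lowest in S-high.

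Along the S score, replication and mitosis genes parted from G1 genes. The kept nuclei were cut into 10 classes of 581, of which the last is S-high. The summed level of the replication lists went from 4329 CPM in the lowest class to 13511 in the ninth and 14936 in S-high nuclei, and that of the mitosis list from 1175 to 5443 CPM. The G1 list had 1833 CPM in the lowest class and 1702 in S-high nuclei. In the last class of the 20% portion, cut in the same way, the replication lists were again highest, at 15046 CPM, and the mitosis list had 5235 CPM, below the 5431 of the ninth class. The lists hold no score gene, but they were read in the library that ordered the nuclei.

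**Figure D4:**
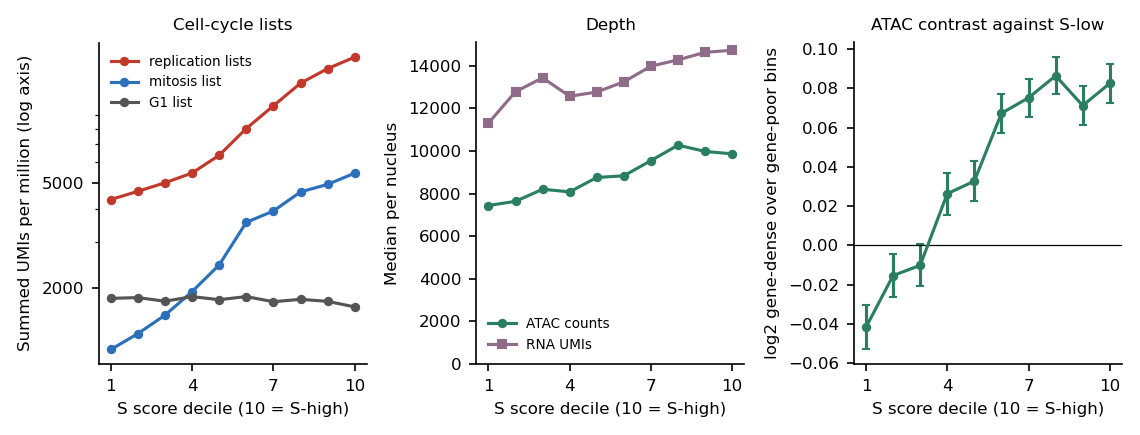
Values over the 10 classes of the S score (x axis, 581 nuclei each, 10 is S-high) in the 80% portion: left, summed CPM of the replication, mitosis and G1 lists on a log axis; middle, median ATAC counts and RNA UMIs per nucleus; right, log2 contrast of ATAC counts in gene-dense over gene-poor bins against S-low nuclei, with 95% counting intervals. Replication and mitosis genes were higher in each class than in the class before, while the contrast lay between 0.067 and 0.086 from the sixth class on; in the 20% portion, which is not drawn, it ran unevenly from 0.022 to 0.128 over these classes.

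The ATAC library took no part in the choice of nuclei. S-high nuclei had a median of 9865 ATAC counts, and S-low nuclei of the same clusters had 8874, a ratio of 1.11 (1.07 to 1.16). The ratio was 1.14 for S-mid and 1.21 for G2/M-high nuclei. By cluster it was 1.07, 1.11, 1.08, 1.17 and 0.999 for S-high nuclei of clusters 0 to 4. In the 20% portion the ratio was 1.07 (0.996 to 1.19). RNA UMIs moved with it, at a ratio of 1.19 in the 80% and 1.23 in the 20% portion, and when S-low nuclei were also weighted to the RNA depth of the S-high nuclei the ATAC ratio was 1.01 (0.974 to 1.05).

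To compare where the ATAC counts lay, autosomal 1 Mb bins were put in 5 classes by their number of annotated gene starts, from at most 4 to at least 20. In S-high nuclei the counts over those expected from S-low were 0.966, 0.975, 0.976, 0.990 and 1.02 from the sparsest to the densest class. The contrast, the log2 ratio of the densest to the sparsest class, was 0.08 (0.07 to 0.09). In G2/M-high nuclei the same classes stood at 0.856, 0.919, 0.957, 0.990 and 1.05, and the contrast was 0.29 (0.29 to 0.30). S-mid nuclei had a contrast of 0.08 (0.07 to 0.08). Copies of DNA and access to it cannot be told apart in these counts.

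The contrast of S-high nuclei differed between clusters by more than its intervals. These cover the counting error of the S-high counts only, and leave out that of the S-low counts and the variation between nuclei. It was −0.01 (−0.02 to 0.01) in cluster 0, 0.22 in cluster 1, 0.30 in cluster 2, 0.13 in cluster 3 and −0.10 (−0.16 to −0.05) in cluster 4, which held 17 S-high nuclei. In G2/M-high nuclei it was 0.36, 0.30, 0.41, 0.11 and −0.07 in the same order. In the 20% portion S-high nuclei had a contrast of 0.03 (0.003 to 0.05), below that of S-mid nuclei, at 0.08 (0.07 to 0.09), and of G2/M-high nuclei, at 0.28. The S-high values there in clusters 0 to 3 were −0.03, 0.15, 0.25 and 0.004. Peaks were taken as at gene starts if within 1000 bp of the stretch from a gene's first to its last annotated start. The median share of a nucleus's ATAC counts in them was 54.2% in S-high, 54.7% in S-low and 57.0% in G2/M-high nuclei of the 80% portion.

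By chromosome, S-high nuclei had the highest ATAC counts over S-low on chromosomes 19 (1.03), 17 (1.03) and 16 (1.02), and the lowest on chromosomes 18 (0.965), 6 (0.969) and 3 (0.971). Chromosomes 19, 17 and 16 carry 34.6, 23.9 and 18.3 gene starts per Mb up to the last peak, and chromosome 3 carries 9.55. Gene starts and counts did not run in parallel throughout, since chromosome 9, with 9.54 gene starts per Mb, stood at 1.02, chromosome 22, with 17.7, at 1.002, and the sparsest chromosomes, 13 with 6.89 and 4 with 8.06, at 0.983 and 0.980. Chromosomes 22, 14, 9 and 17 were highest in the 20% portion, each at 1.02, and chromosomes 18 (0.936), 4 (0.965) and 21 (0.973) lowest. G2/M-high nuclei were highest on chromosomes 19, 17 and 22 and lowest on chromosomes 13 (0.929), 4 (0.941) and 3 (0.960).

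**Figure D5:**
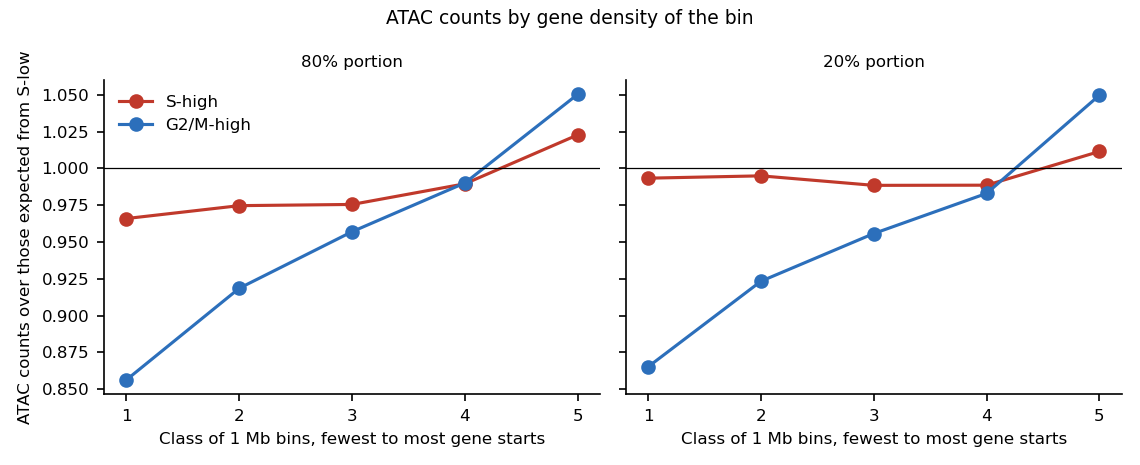
ATAC counts of S-high (red) and G2/M-high nuclei (blue) over those expected from S-low nuclei of the same clusters (y axis), for 5 classes of autosomal 1 Mb bins from fewest to most gene starts (x axis), in the 80% (left) and 20% portion (right). The y axis does not start at 0. S-high nuclei ran from 0.966 to 1.02 in the 80% portion, a flatter line than that of G2/M-high nuclei, from 0.856 to 1.05.

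At the score genes themselves, ATAC counts were read in peaks within 1000 bp of the stretch from the first to the last annotated start. This stretch can be long, as for RRM2, where it runs from 10120698 to 10141883 on chromosome 2. The counts were 1.21 times those expected from S-low nuclei (1.15 to 1.27), and 1.25 times (1.11 to 1.39) in the 20% portion. In G2/M-high nuclei the ratio was 1.05 (1.001 to 1.101) in the 80% portion and 1.17 (1.06 to 1.30) in the 20% portion, where the intervals of both classes overlapped. Over 13921 genes with at least 500 counts at their starts, the median ratio of S-high to S-low was 0.993, the middle 80% of genes lay between 0.838 and 1.18, and 49 (0.352%) were higher by 1.5-fold. RRM2 had 1.67 (1.47 to 1.90), with 682 counts in S-high nuclei over 7 peaks, and E2F8 had 1.54 (1.25 to 1.89). The peak over the RRM2 promoter printed above held 315 of these S-high counts and 549 of the 1719 S-low counts. The ratio of RRM2 is therefore not that of this peak alone. In the 20% portion RRM2 had 1.45 (1.07 to 1.96) and E2F8 2.59 (1.70 to 3.92). BRIP1 had 1.39 (1.13 to 1.71), MCM4 1.24 (1.07 to 1.44) and ATAD2 1.13 (1.02 to 1.25) in the 80% portion. The counting intervals of CLSPN, at 1.23 (0.992 to 1.52), HELLS, at 1.18, POLA1, at 1.101, MCM6, at 0.962, and DTL, at 0.946, held 1, so no difference was detectable at this depth. The 20% portion intervals of BRIP1, at 1.55 (0.983 to 2.40), MCM4, at 1.27, and ATAD2, at 1.01, held 1 too. Over whole lists the ratio in the 80% portion was 1.12 for the replisome, 1.16 for E2F and cyclin control, 1.16 for chromatin assembly, 1.07 for fork repair, 1.06 for nucleotide supply, 1.04 for origin factors and 0.995 for the G1 list. It was 1.09 (1.06 to 1.12) for the mitosis list and 1.18 (1.098 to 1.27) for the 8 genes of the G2/M score, whose interval overlapped that of the S score genes. The ratios of the 20% portion were 1.09 (1.01 to 1.17) for the replisome, 1.09 (0.992 to 1.20) for E2F and cyclin control, 1.002 (0.914 to 1.098) for chromatin assembly, 1.02 (0.963 to 1.08) for the mitosis list, 1.07 (0.997 to 1.14) for fork repair, 1.06 (0.963 to 1.17) for nucleotide supply, 0.998 for origin factors, 0.996 for the G1 list and 1.19 (1.02 to 1.39) for the G2/M score genes. Of these intervals, those of the replisome and of the G2/M score genes lay wholly above 1.

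Long reads gave a further readout of the 20% portion that the choice did not use. All 106 S-high nuclei had long-read counts, with a median of 32280 (30536 to 35713), against 27182 (26522 to 28185) in S-low and 33071 in G2/M-high nuclei. The S-high median was 1.19 times that of S-low (1.12 to 1.31). The long-read count per short-read UMI was 2.57 in S-high and 2.63 in S-low nuclei. The median of short-read UMIs was 12886.5 in these S-high and 10282 in these S-low nuclei. The long-read values were not weighted by RNA cluster, and the part of UMI depth in their difference was not tested.

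Promoter letters were also counted for the lists. At least 1 of the 4 E2F words stood in 46.2% of 13 promoters of E2F and cyclin control, 33.3% of 21 of origin factors, 26.9% of 26 of the replisome, 18.8% of 16 of nucleotide supply, 17.6% of 17 of chromatin assembly and 16.7% of 30 of fork repair. The share was 22.4% of 49 histone promoters, 10.2% of 49 of the mitosis list, 3.85% of 26 of the G1 list and 3.40% of all promoters. The word TTTGAA, called CHR and known from promoters of G2 and mitosis genes, stood on either strand in 53.1% of promoters of the mitosis list, 34.7% of those of histones and 16.1% of all. Of the replication lists, E2F and cyclin control (23.1%), fork repair (20%) and nucleotide supply (18.8%) were above that share, and chromatin assembly (5.88%), the replisome (3.85%) and origin factors (0%) were below it, as was the G1 list (7.69%). Among 8 promoters of line-linked genes, which are not of the cell cycle, 3 held it. Both words are short, and the base composition of the lists was not compared.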

How the data were processed

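RNA and ATAC were measured in nuclei of 5 mixed lines, in 1 library of each kind for each portion. The authors deposited whole-number counts without normalization from Cell Ranger ARC 2.0.0 on hg38, with barcodes called as cells and peaks called for each matrix. The gene annotation was named in none of these sources. About 90.1% of ATAC values were even, so ATAC intervals use counts divided by 2. Long-read counts per barcode were deposited too, without saying if reads or molecules were counted. The matrix of both portions together was not used here.

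RNA clusters came from 2000 variable genes without 301 cell-cycle genes, 30 components and 20 neighbours (Louvain, resolution 0.05, scanpy 1.11.5, igraph 0.11.9). Nuclei of the 20% portion took the nearest cluster profile, a step that gave 96.8% of the 80% nuclei the cluster they came from. Doublets were called with Scrublet and kept in the main values. Expected counts are S-low rates in each cluster times the S-high total of that cluster. Intervals are exact Poisson or binomial intervals (scipy 1.17.1), and those of medians come from order statistics over nuclei. The fold and bin steps were tested on simulated data.

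The genes named are the score genes, the 10 highest and 10 lowest genes outside the scores that go the same way in both portions, the 3 highest of each list (and lowest of the G1 and mitosis lists) and CDT1, CDC6, CCNE1, CCNE2, E2F1, CCNA2, PCNA, CCND1 and CDKN1A. Others were named after their values were seen. A gene that this rule names is not reported here. The members, lists and rules were chosen with earlier results of these data known. Promoter sequences are from RefSeq for GRCh38.p14, and those printed were identical to hg38.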

Additional observations from a re-analysis of the deposited data

How the results depend on the processing

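Of 142 values under other settings, 97 stayed within 1.5 times a count or within the interval of a value, 45 moved further and 0 reversed. The count of replication genes higher in S-high nuclei stayed between 102 and 123 except with a filter of 50 CPM, which left fewer genes to compare and gave 50. That filter gave 237 higher and 48 lower genes, 2-fold gave 387 and 54, no filter gave 3976 and 3526, and S-low widened to the lowest 90% gave 424 and 142. Lower genes were 815 without cluster weights and 944 in the 20% matrix.

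The ATAC count ratio of S-high to S-low nuclei was 1.01 with a floor of 10000 UMIs (0.970 to 1.06) and 1.01 with weights by RNA depth, 1.05 against the lowest 90%, 1.07 in the 20% matrix and 1.25 without cluster weights. The contrast of S-high nuclei was 0.067 with thinned scores, 0.066 with 20% of the G2/M score dropped, 0.097 without doublets, 0.026 in the 20% matrix, 0.042 against the lowest 90%, 0.056 without cluster weights, 0.060 at gene starts, 0.104 away from them, 0.067 with bins ranked by GC content and 0.098 with weights by ATAC depth. That of G2/M-high nuclei was 0.281 with thinned scores, 0.277 with 20% dropped, 0.279 in the 20% matrix, 0.276 without cluster weights, 0.253 at gene starts, 0.279 away from them and 0.198 with bins of 5 Mb. In none of these did it come below that of S-high nuclei.

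The ATAC ratio at the score genes was 1.27 for the highest 5% and 1.15 against the lowest 90%, and the long-read ratio was 1.11 with a floor of 10000 UMIs. With that floor the S-high share of cluster 1 was 18.4%. In the 20% matrix the shares of clusters 0, 1 and 4 were 13.8%, 9.80% and 0%. With the highest 5% as S-high, which lowers every share by construction, clusters 0 to 4 had 6.07%, 7.15%, 1.85%, 5.52% and 0.712%. The causes of the other changes were not tested. Finer clusters and weights by RNA or ATAC depth were added after seeing the data. No paired analysis was possible because each portion has 1 library of each kind. With 106 S-high nuclei the 20% portion limits what can be seen of low genes.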

Other observations

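Lists that are not of the cell cycle showed little difference between S-high and S-low nuclei of the same clusters. None of the 13 mitochondrial genes reached 1.5-fold in either direction, and their summed level was 7385 CPM in S-high and 7449 CPM in S-low nuclei. Of 16 genes linked to single lines, AL356804.1 was higher (18.7 against 8.65 CPM, in 1 of 5 clusters), MGP was lower, with a log2 fold of −1.50, and 14 stayed within 1.5-fold, among them the keratin KRT7 at 1387 and 1165 CPM. These counts are near the shares of all genes, 7.2% higher and 3.44% lower. MCM10 UMIs were found in 73.5% of S-high, 49.4% of S-mid, 5.40% of S-low and 32.4% of G2/M-high nuclei, at median depths of 14724, 14008, 12507 and 16027 UMIs.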
